A study of Mus musculus with 9 samples.

Results

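The mRNA levels of 41 genes of the lysosome were compared after 12 h in 3 conditions in 4T1, a line of breast cancer cells from the mouse strain BALB/c. In the MRC+L group the medium held MRC nanoparticles and the cells were irradiated at 660 nm for 3 min, in the MRC group the medium held the same nanoparticles without light, and in the PBS group the cells were in medium alone. There was no group with light and no nanoparticles. The labels do not spell out MRC, and they give the irradiance as 180 with a unit that is mV per square centimetre in one place and mW per square centimetre in another. Each group had 3 libraries, 9 in all, and nothing in the labels says that these were separate cultures, so p-values here reflect only how far these samples spread, and that spread may be technical. The 41 genes were picked by symbol from the 55416 genes in the count tables, as V-ATPase subunits, lysosomal hydrolases, lysosomal membrane proteins and the transcription factors that act on such genes. They fall into 15 V-ATPase genes, 16 hydrolases and 10 others, and each of the 41 passed the filter on low counts.

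Lysosomes break down proteins, lipids, glycans and nucleic acids with hydrolases that work at acid pH. The acid is made by the V-ATPase, a rotary proton pump whose V1 sector hydrolyses ATP on the cytosolic side and whose V0 sector carries protons across the membrane. Many genes of both kinds are targets of TFEB, TFE3 and MITF, related factors that bind E-box sequences of the CLEAR type near the start of lysosomal genes and that mTORC1 holds in the cytosol when nutrients are plentiful.

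Because such E-boxes tie several of the genes together, the window from 250 bases before to 50 bases after each annotated start was searched for CACGTG and for the longer TCACGTGA, both of which read the same on either strand, so that each match of the longer motif is also a match of the shorter one. RefSeq windows of build GRCm38.p6 were found for 34 of the 41 genes. Atp6v1b2, Atp6v1c1, Atp6v1g1, Atp6v1h, Ctsb, Ctsh and Asah1 had none. CACGTG stood in a window of 12 of the 34 genes (35.3%), against 8.09% of the 27025 genes with a window. TCACGTGA stood in a window of 7 of the 34 (20.6%), against 1.12% of all genes with a window. By class, TCACGTGA was in 3 of 11 V-ATPase genes (Atp6v0d1, Atp6v0e and Atp6v1a), in 3 of 13 hydrolases (Ctsa, Ctsd and Gla) and in 1 of 10 other genes (Mcoln1). The pieces of 30 bases below show one match for each of these 7 genes on the strand of the gene, with the motif in capitals, to set beside the levels that follow.
Atp6v0d1 (chr8:105566050-105566079, minus strand): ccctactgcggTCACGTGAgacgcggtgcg
Atp6v0e (chr17:26676387-26676416, plus strand): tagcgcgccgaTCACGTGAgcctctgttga
Atp6v1a (chr16:44139373-44139402, minus strand): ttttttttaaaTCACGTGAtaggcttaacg
Ctsa (chr2:164833749-164833778, plus strand): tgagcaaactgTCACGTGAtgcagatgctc
Ctsd (chr7:142387908-142387937, minus strand): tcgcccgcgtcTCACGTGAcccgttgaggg
Gla (chrX:134601215-134601244, minus strand): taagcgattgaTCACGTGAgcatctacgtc
Mcoln1 (chr8:3500462-3500491, plus strand): aggcgccccgcTCACGTGAccgcggcgcat
Ctsa held another match, whose first base lies at position 4 against -13 for the one shown, counted from the annotated start with negative values upstream. Gla also held another one, at -195 against -228 for the one shown. The shorter motif alone was found in Atp6v0b, Ctsl, Gaa, Glb1 and Lamp1, and the Lamp1 window held 4 copies between -61 and -15. A match is a description of the letters and not a bound site.

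The tables hold read-pair counts per gene, with 15019765 to 20044166 counts per library. Levels below are CPM, the counts of a gene scaled to the library total with TMM factors. Fold changes are on the log2 scale and come from edgeR's quasi-likelihood test. The standard error after a fold change was derived from that test, as the absolute log2 fold change over the square root of its F statistic. P-values were adjusted by the Benjamini-Hochberg method over all genes tested, and a gene was called at an adjusted p under 0.05. Where groups are said not to overlap, here or in a figure, this describes the gene. The share of all genes with such a gap was not counted. One library stands apart. PBS replicate 2 has relatively more counts in short genes: its shortest 10% of genes exceeded its longest 10% by 0.92 on the log2 scale, after the mean of all libraries was taken off each gene, against -0.25 to 0.08 in the other 8. The biological coefficient of variation, the spread between libraries beyond counting noise as a share of the level, was 0.0578 in MRC+L, 0.0808 in MRC and 0.281 in PBS. Among the members PBS replicate 2 was the highest of the 3 PBS libraries in 12 of the 15 V-ATPase genes and in 11 of the 16 hydrolases, so counts against PBS are given with and without it. The part of this library in the results was not tested beyond that. In bulk RNA, fewer cells of a kind and less RNA per cell cannot be told apart. Of the markers that define the cell type, the keratins Krt8, Krt18 and Krt7 were abundant, Cdh1 had 1.95 to 5.17 CPM and Epcam at most 0.311 CPM. The 6 epithelial markers summed to 557 to 571 CPM in MRC+L, 633 to 665 CPM in MRC and 1055 to 1876 CPM in PBS. Krt8 and Krt18 made up most of that sum and fell with MRC (log2 fold changes -1.03 and -1.52, adjusted p = 0.000696 and 0.000489). Cldn4, at most 1.01 CPM, rose (1.72, 0.0142, and up to 0.214 among the alternative analyses). The 8 fibroblast and endothelial markers summed to 77.6 to 88.6 CPM in MRC+L, 80.7 to 97.6 CPM in MRC and 46.8 to 84.0 CPM in PBS, most of it Pdgfra, which rose with MRC (0.80, adjusted p = 0.0107). Pdgfrb fell (-1.47, 0.000996), and Pecam1, below 1 CPM throughout, rose (1.87, 0.0298, and up to 0.299 among the alternative analyses). The collagens Col1a1, Col1a2 and Col3a1 had at most 1.83 CPM. The part of these markers in the results below was not tested.

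The V-ATPase genes that changed with MRC were higher than in medium. With MRC against PBS, 5 of the 15 rose and 0 fell, against a background of 17.8% of the 13439 tested genes called higher and 19.8% called lower. The 5 were Atp6v0a1 and Atp6v0b of the membrane sector, Atp6v1b2 and Atp6v1h of the ATP-hydrolysing sector, and the accessory protein Atp6ap2. They lie on chromosomes 11, 4, 8, 1 and X, in that order. The median log2 fold change of the 15 was 0.17, against -0.03 over all genes tested. Without PBS replicate 2 it was 0.40, against 0.00 over all genes, and with the trend on gene length removed it was 0.31. By an unadjusted p under 0.05, 0 of the 15 were lower as well, and DESeq2 called 5 higher and 0 lower. Over all 13439 genes the unadjusted threshold gave 3366 lower, and DESeq2 called 2729 higher and 2989 lower.

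Atp6v1h (GRCm39 chr1:5140241-5232752) encodes the H subunit, which a working pump needs and which restrains ATP hydrolysis when V1 is apart from V0. It had 99.1, 104 and 105 CPM in the MRC+L libraries, 114, 91.0 and 97.0 CPM in the MRC libraries and 61.1, 66.7 and 56.0 CPM in the PBS libraries. All 6 libraries with nanoparticles lay above the 3 PBS libraries, and MRC+L lay within the range of MRC. It rose with MRC by 0.72 ± 0.11 on the log2 scale, or 1.64-fold (adjusted p = 0.000894).
The a subunit, which holds the path of the protons and directs the pump to a membrane, has several isoforms, of which a1 is a member here. Its gene Atp6v0a1 (chr11:100900278-100954545) had 63.4, 54.6 and 57.8 CPM in the MRC+L libraries, 62.1, 70.3 and 54.4 CPM in the MRC libraries and 41.5, 39.7 and 47.4 CPM in the PBS libraries. MRC did not overlap PBS and the log2 fold change was 0.54 ± 0.12 (adjusted p = 0.00723).
Atp6ap2 (chrX:12454040-12483288), the prorenin receptor and an accessory protein needed to assemble the pump, had 69.6, 77.5 and 77.7 CPM in the MRC+L libraries, 83.3, 74.8 and 80.7 CPM in the MRC libraries and 61.1, 61.5 and 56.6 CPM in the PBS libraries. The MRC libraries again lay above every PBS library, by a log2 fold change of 0.41 ± 0.10 (adjusted p = 0.00713).
Atp6v1b2 (chr8:69541298-69566363) encodes the B2 subunit, which binds nucleotide beside the catalytic A subunit. Its levels were 141, 158 and 149 CPM in the MRC+L libraries, 142, 131 and 135 CPM in the MRC libraries and 116, 104 and 105 CPM in the PBS libraries. The MRC and PBS libraries did not overlap, and the log2 fold change was 0.33 ± 0.10 (adjusted p = 0.0225, and up to 0.0857 among the alternative analyses).
Atp6v0b (chr4:117741523-117744530), a proteolipid of the rotating ring, had 110.5, 122 and 110.2 CPM in the MRC+L libraries, 108, 96.3 and 106 CPM in the MRC libraries and 59.0, 97.0 and 48.6 CPM in the PBS libraries. PBS replicate 2 was higher than 1 of the MRC libraries, and the other 2 PBS libraries were far below all 6 libraries with nanoparticles. The log2 fold change with MRC was 0.60 ± 0.21 (adjusted p = 0.047), with an adjusted p of up to 0.15 among the alternatives, and it was 0.94 without PBS replicate 2.

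**Figure D1:**
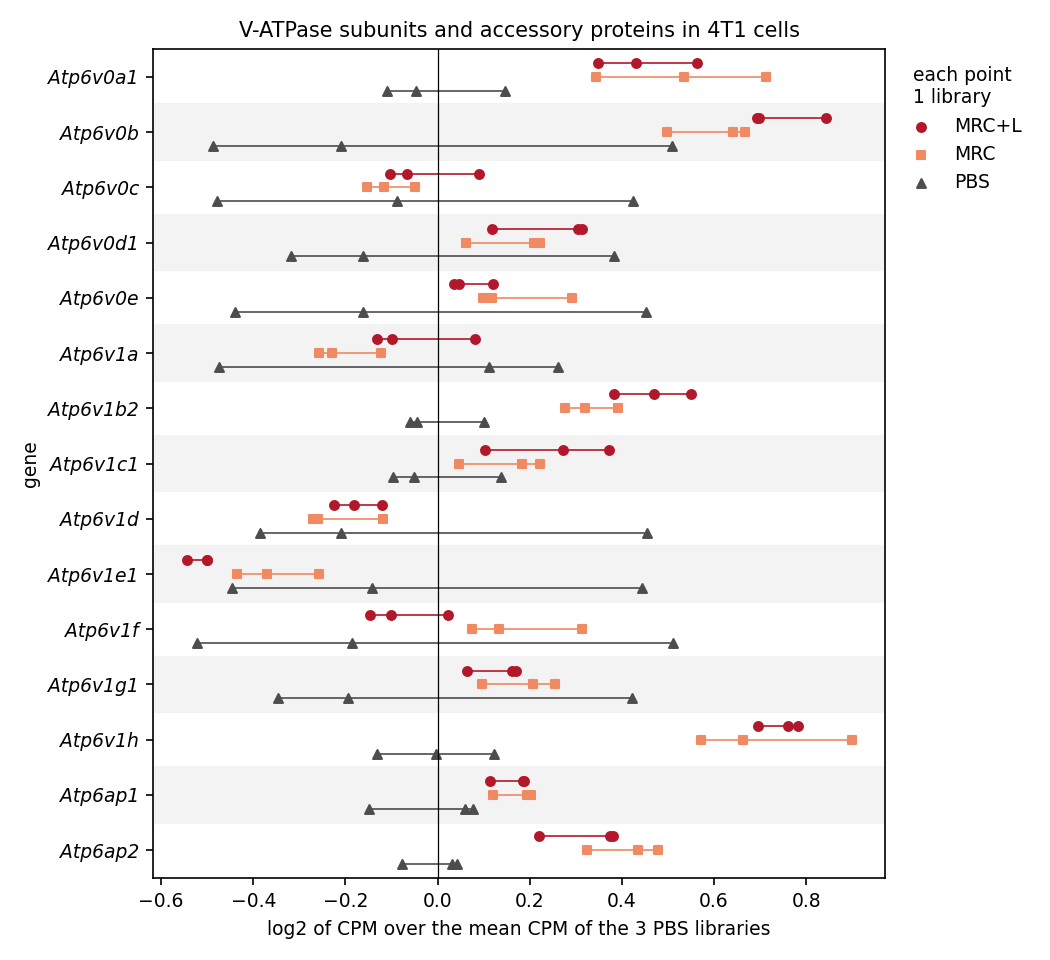
Level of the 15 V-ATPase genes in each library, as log2 of CPM over the mean CPM of the 3 PBS libraries, with 1 point per library, a line over the range of each group, and MRC+L above MRC above PBS. Atp6v1h, Atp6v1b2, Atp6v0a1, Atp6ap2 and Atp6ap1 show all libraries with nanoparticles to the right of all PBS libraries, although Atp6ap1 was not called. For most others a single high PBS library spreads the PBS range over the rest.

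The other 10 V-ATPase genes were not called with MRC, and their log2 fold changes ran from -0.35 for Atp6v1e1 to 0.19 for Atp6v1g1. Without PBS replicate 2, 10 of the 15 were higher with MRC and 1 was lower, against 24.7% and 26.0% of the 13747 genes tested in that fit. The 5 added calls higher were Atp6v0d1 (log2 fold change 0.40), a subunit that joins the ring to the stalk, Atp6v0e (0.46), a small membrane subunit, Atp6v1f (0.51), part of the rotor, Atp6v1g1 (0.45), part of the outer stalk, and Atp6ap1 (0.21), the second accessory protein. The call lower was Atp6v1a (-0.40), the catalytic A subunit, which had 111, 97.6 and 95.4 CPM in the MRC+L libraries, 89.2, 87.5 and 96.0 CPM in the MRC libraries and 113, 75.3 and 125 CPM in the PBS libraries. PBS replicate 2 was the lowest PBS library for Atp6v1a and the highest for 12 of the other V-ATPase genes. Leaving out MRC replicate 1 or MRC replicate 3 left 3 of the 15 called higher, and leaving out PBS replicate 3 gave 4 higher and 1 lower, Atp6v1e1. Over all genes these fits called 1684 of 13858, 1873 of 13811 and 3046 of 13821 higher, in that order, and the last called 3244 lower.

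With MRC+L against PBS, which uses the same 3 PBS libraries and is therefore no separate evidence, 5 V-ATPase genes rose and 1 fell, against 21.8% of all genes called higher and 24.5% called lower. The log2 fold changes with MRC+L were 0.75 ± 0.11 for Atp6v1h (adjusted p = 0.000564), 0.47 ± 0.10 for Atp6v1b2 (0.00321), 0.45 ± 0.12 for Atp6v0a1 (0.0145), 0.75 ± 0.21 for Atp6v0b (0.0166) and 0.33 ± 0.10 for Atp6ap2 (0.0189). For Atp6v0a1, Atp6v0b and Atp6ap2 some alternatives ended the call, with adjusted p of up to 0.0636, 0.0653 and 0.107. The gene that fell was Atp6v1e1, which encodes the E subunit of the outer stalk. It had 44.3, 43.0 and 44.3 CPM in the MRC+L libraries, 48.5, 46.4 and 52.5 CPM in the MRC libraries and 56.8, 85.3 and 46.0 CPM in the PBS libraries. The MRC+L libraries lay below every PBS library, the closest of them by a small step, and the log2 fold change was -0.52 ± 0.19 (adjusted p = 0.0487, and 0.00382 to 0.126 among the alternatives). It was -0.23 without PBS replicate 2 (adjusted p = 0.0552). Without PBS replicate 2, 11 of the 15 were higher and 1 lower with MRC+L, against 27.4% and 28.3% of all genes, and the one lower was Atp6v1a (-0.24). Leaving out PBS replicate 1 left 2 called higher and 0 lower, and leaving out MRC+L replicate 2 left 3 higher and 0 lower. Over all genes the first of these fits called 2410 of 13787 higher and 2803 lower. The second called 2226 of 13802 higher and 2476 lower.

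Per kilobase of exon, counted over all annotated exons of a gene, the V-ATPase members differed widely in level. In PBS the highest was Atp6v1f with 97.7 ± 37.0 CPM per kb and the lowest were Atp6v1h with 6.29 ± 0.551 and Atp6v0a1 with 6.54 ± 0.618 (mean ± SD, n = 3). Atp6v1h and Atp6v0a1, which rose with MRC, were thus the V-ATPase members with the lowest level per kb in PBS. This does not hold for the a subunit as a whole, whose other isoforms were not members. The exon length used is not the length of a transcript, so the order also depends on the annotation. In CPM the PBS mean was lowest for Atp6v0a1 (42.87), while that of Atp6v1h (61.25) was above Atp6v0d1 (44.33) and Atp6ap2 (59.75). Atp6v0c, the main proteolipid of the ring, had 71.4, 69.6 and 79.6 CPM in the MRC+L libraries, 72.3, 67.3 and 69.0 CPM in the MRC libraries and 70.3, 100.3 and 53.6 CPM in the PBS libraries, and the MRC and MRC+L libraries lay within the PBS range. The annotation holds 2 processed copies named after Atp6v0c, and read pairs with more than 1 place in the genome were not counted, so its level is uncertain.

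The isoforms of the a subunit, which were not members, moved in opposite directions. Atp6v0a2 (a2, of the Golgi and endosomes) rose with MRC by 0.96 ± 0.15 (adjusted p = 0.000845) and with MRC+L by 1.08 ± 0.15 (0.000324). It had 71.8, 75.9 and 67.0 CPM in the MRC+L libraries, 65.7, 72.2 and 59.2 CPM in the MRC libraries and 35.9, 26.3 and 39.3 CPM in the PBS libraries. Tcirg1 (a3, known for the acid pump of osteoclasts) fell by a log2 fold change of -1.42 ± 0.12 with MRC (adjusted p = 1.66e-05) and by -1.60 ± 0.12 with MRC+L (5.56e-06). It had 90.6, 87.8 and 85.0 CPM in the MRC+L libraries, 88.0, 109.6 and 101 CPM in the MRC libraries and 262, 292 and 244 CPM in the PBS libraries. None of the 6 libraries with nanoparticles reached any PBS library for either gene. Per kb of exon, Tcirg1 made up 49.1% to 49.6% of the a-subunit mRNA in MRC+L, 49.8% to 56.2% in MRC and 80.1% to 86.4% in PBS. The share of Atp6v0a1 was 21.5% to 24.1% in MRC+L, 21.2% to 24.7% in MRC and 8.24% to 10.9% in PBS. The sum over the isoforms was 38.7 ± 1.41 CPM per kb in MRC+L, 40.97 ± 3.77 in MRC and 69.4 ± 3.76 in PBS (mean ± SD, n = 3 each). Tcirg1 was the most abundant isoform in all 9 libraries, and the summed level was lower with nanoparticles although a1 and a2 rose. Of 2 further paralogs past the filter, both near 1 to 3 CPM, Atp6v0e2 rose with MRC (1.04 ± 0.27, adjusted p = 0.0134, and up to 0.134 among the alternatives) and Atp6v1g2 fell (-1.28 ± 0.33, 0.0115, and up to 0.0524). The other 6 paralogs on the list did not pass the filter.

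**Figure D2:**
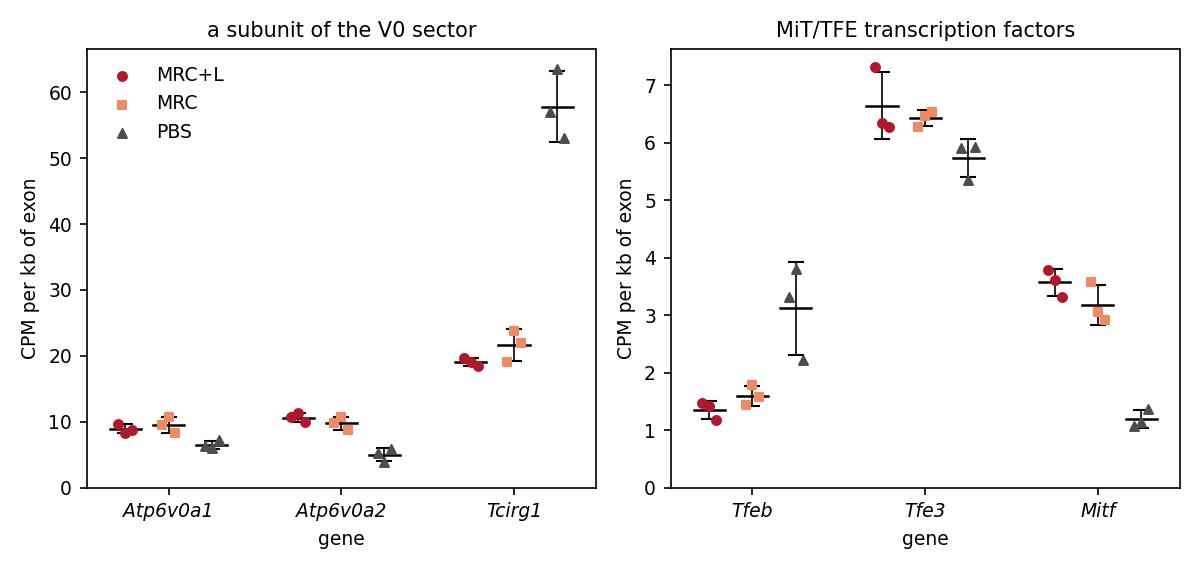
Level in CPM per kb of exon of the 3 expressed a-subunit isoforms (left) and of the MiT/TFE factors (right), with 1 point per library, a bar at the mean and whiskers of 1 SD over n = 3, and MRC+L left of MRC and PBS. Tcirg1 and Tfeb are highest in the PBS libraries, whereas Atp6v0a1, Atp6v0a2 and Mitf are lowest there.

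Factors that build or regulate the pump also split. Of 10 such genes tested, 4 rose and 3 fell with MRC, and 4 rose and 3 fell with MRC+L against PBS, where 17.8% of all genes were higher and 19.8% lower with MRC, and 21.8% and 24.5% with MRC+L. Among those that fell with MRC, Ncoa7, a TLDc protein that binds the V-ATPase, had 29.9, 28.4 and 25.1 CPM in MRC+L, 23.7, 23.4 and 24.9 CPM in MRC and 70.4, 59.3 and 78.2 CPM in PBS (log2 fold change -1.53 ± 0.13, adjusted p = 1.84e-05). Vma21, an endoplasmic reticulum chaperone of V0 assembly, had 73.5, 65.1 and 60.4 CPM in MRC+L, 66.0, 56.5 and 75.9 CPM in MRC and 157, 140.3 and 173 CPM in PBS (-1.24 ± 0.14, adjusted p = 0.000103). For both genes each library with nanoparticles lay below each PBS library. Rogdi, of the RAVE-like complex that joins V1 and V0, fell by a log2 fold change of -0.85 ± 0.24 (adjusted p = 0.0185, and up to 0.0683 among the alternatives), and by -0.55 without PBS replicate 2. Other subunits of that complex rose with MRC, Dmxl2 by 1.13 ± 0.35 (adjusted p = 0.0269) and Dmxl1 by 0.85 ± 0.29 (0.0405). Both have long transcripts and were lowest in PBS replicate 2, the library with relatively few counts in long genes. Without it their log2 fold changes were 0.77 and 0.53, both called, and other alternatives ended the calls, with adjusted p of up to 0.0794 for Dmxl2 and 0.101 for Dmxl1. Oxr1, another TLDc protein, rose by 0.57 ± 0.13 (adjusted p = 0.00579).

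The hydrolases that changed with MRC were mostly lower. With MRC against PBS, 1 of the 16 rose and 6 fell, and the median log2 fold change of the 16 was -0.14. The shares to set this against are the 17.8% higher and 19.8% lower over all genes given above. The 6 that fell were the cathepsins Ctsa, Ctsh and Ctsl, the glycosidases Glb1 and Gusb, and the lipase Lipa. Proteases, glycosidases and a lipase were thus among them. The one that rose was Gla, alpha-galactosidase A, which removes terminal galactose from globotriaosylceramide.

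Gusb (chr5:130017852-130031890) encodes beta-glucuronidase, which cuts glucuronic acid from glycosaminoglycans. It had 70.1, 77.9 and 71.8 CPM in the MRC+L libraries, 77.8, 87.1 and 85.9 CPM in the MRC libraries and 135, 127 and 121 CPM in the PBS libraries. All libraries with nanoparticles lay below all PBS libraries, and it fell with MRC by a log2 fold change of -0.61 ± 0.10 (adjusted p = 0.000892) and with MRC+L by -0.80 ± 0.10 (0.000137).
Ctsh (chr9:89936205-89958142), a cysteine protease that acts mainly as an aminopeptidase, had 19.0, 17.2 and 19.1 CPM in the MRC+L libraries, 22.7, 21.1 and 23.5 CPM in the MRC libraries and 41.5, 54.5 and 33.2 CPM in the PBS libraries. The 3 groups did not overlap, with MRC+L lowest and PBS highest. Its log2 fold change was -0.94 ± 0.17 with MRC (adjusted p = 0.00164) and -1.22 ± 0.17 with MRC+L (0.00029), the lowest values among the hydrolase members in either comparison.
Gla (chrX:133488898-133501874) had 43.0, 49.5 and 50.4 CPM in the MRC+L libraries, 43.7, 39.2 and 46.3 CPM in the MRC libraries and 28.4, 29.8 and 28.2 CPM in the PBS libraries. The PBS libraries lay close together and below every other library, and Gla rose by 0.58 ± 0.11 with MRC (adjusted p = 0.00235) and by 0.73 ± 0.11 with MRC+L (0.000509).
Lipa (chr19:34469718-34504874), the acid lipase for cholesteryl esters and triglycerides, had 12.5, 9.37 and 10.5 CPM in the MRC+L libraries, 11.8, 11.7 and 11.5 CPM in the MRC libraries and 17.8, 15.5 and 19.4 CPM in the PBS libraries. Again no library with nanoparticles reached the PBS range. The log2 fold change was -0.59 ± 0.14 with MRC (adjusted p = 0.00919) and -0.70 ± 0.15 with MRC+L (0.00322).
Ctsa (chr2:164674793-164682952) is a carboxypeptidase that also protects beta-galactosidase and neuraminidase from breakdown. Its levels were 111, 107 and 106 CPM in the MRC+L libraries, 110.1, 117 and 108 CPM in the MRC libraries and 148, 189.6 and 137 CPM in the PBS libraries. The PBS libraries were higher throughout, and Ctsa fell by a log2 fold change of -0.50 ± 0.13 with MRC (adjusted p = 0.0108) and by -0.55 ± 0.13 with MRC+L (0.00552).

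**Figure D3:**
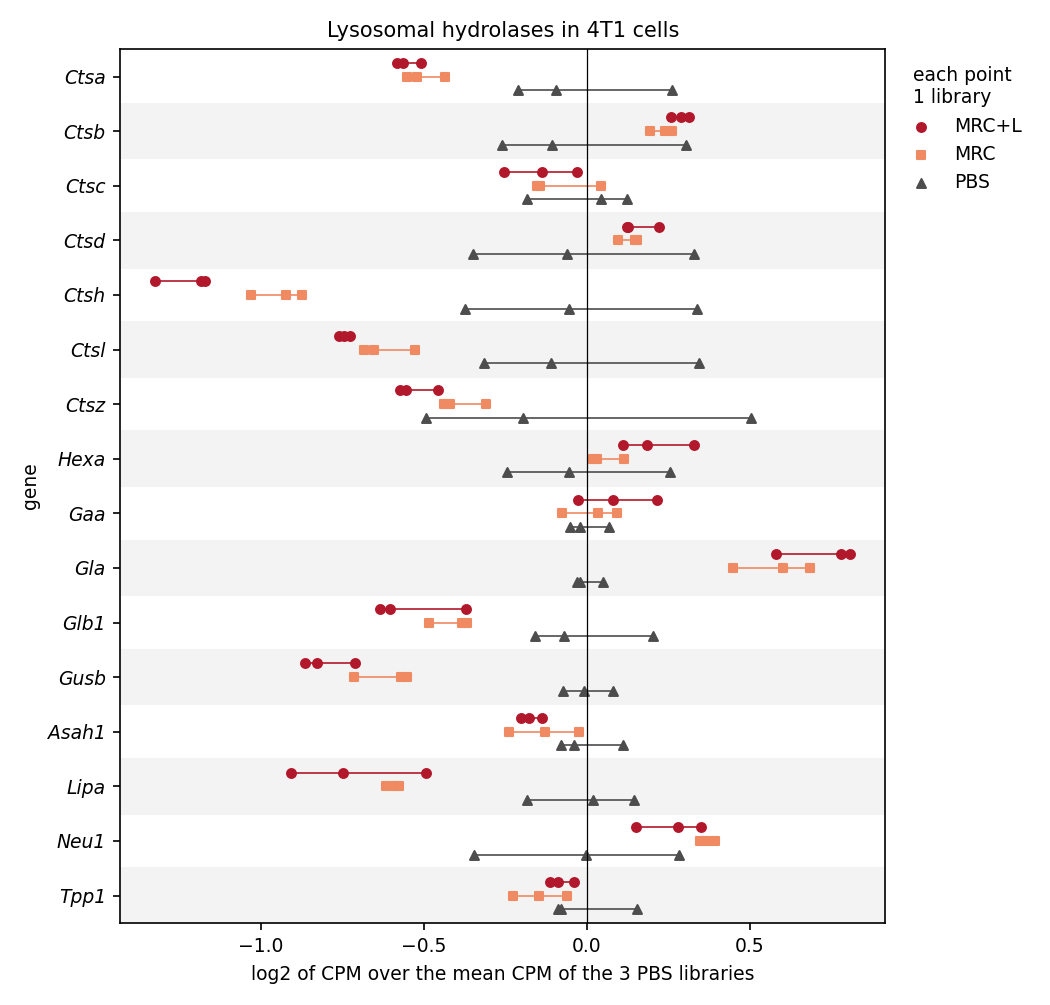
Level of the 16 hydrolase genes in each library, as log2 of CPM over the mean CPM of the 3 PBS libraries, with 1 point per library and MRC+L above MRC above PBS. Ctsh, Gusb, Lipa, Ctsa, Ctsl and Glb1 have every library with nanoparticles to the left of every PBS library, and Gla has every one to the right.

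Ctsl, an endopeptidase, was by far the most abundant hydrolase per kb, with 281 ± 3.42 CPM per kb in MRC+L, 306 ± 17.6 in MRC and 470.3 ± 114 in PBS (mean ± SD, n = 3 each), and took 0.179% to 0.183% of all counts in MRC+L, 0.192% to 0.213% in MRC and 0.2502% to 0.3754% in PBS. It fell by a log2 fold change of -0.62 ± 0.16 with MRC (adjusted p = 0.0121, and up to 0.0525 among the alternatives) and by -0.74 ± 0.16 with MRC+L (0.00387). Summed over the 16 hydrolases the level was 3747 ± 40.6 CPM in MRC+L, 3912 ± 150.1 CPM in MRC and 5063 ± 1076 CPM in PBS. Leaving Ctsl out, the sum was 1924 ± 28.2 CPM in MRC+L, 1926 ± 36.5 CPM in MRC and 2012 ± 339.9 CPM in PBS, with overlapping libraries, so the lower sum came mostly from this gene. Glb1, beta-galactosidase, averaged 45.1 ± 4.62 CPM in MRC+L, 49.0 ± 2.11 CPM in MRC and 65.1 ± 8.78 CPM in PBS. It fell by a log2 fold change of -0.41 ± 0.12 with MRC (adjusted p = 0.025, and up to 0.0975 among the alternatives) and by -0.53 ± 0.12 with MRC+L (0.00614).

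The 9 hydrolases not called with MRC had log2 fold changes from -0.39 for Ctsz, a carboxypeptidase, to 0.37 for Neu1, the lysosomal sialidase. Ctsb and Ctsd, the major cysteine and aspartic proteases after Ctsl, did not follow it. Ctsb had 736, 719.8 and 748 CPM in the MRC+L libraries, 721, 688 and 710.4 CPM in the MRC libraries and 559, 743 and 502 CPM in the PBS libraries. Ctsd had 181, 181 and 193 CPM in the MRC+L libraries, 184, 177 and 184 CPM in the MRC libraries and 159, 208 and 130.1 CPM in the PBS libraries. In both genes PBS replicate 2 was above or among the libraries with nanoparticles and the other 2 PBS libraries were below them. Without PBS replicate 2, 4 hydrolases were higher with MRC and 6 were lower, against 24.7% and 26.0% of all genes, the added ones being Ctsb (log2 fold change 0.41), Ctsd (0.32) and Neu1 (0.52). In that fit the 6 lower had log2 fold changes of -0.74 for Ctsh, -0.68 for Lipa, -0.62 for Gusb, -0.42 for Ctsl, -0.36 for Ctsa and -0.30 for Glb1. Ctsc, the dipeptidyl peptidase, Hexa, the alpha subunit of beta-hexosaminidase, Gaa, the glycogen-degrading alpha-glucosidase, Asah1, acid ceramidase, and Tpp1, a tripeptidyl peptidase, had log2 fold changes between -0.14 for Tpp1 and 0.05 for Hexa with MRC.

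With MRC+L against the same PBS libraries, 1 hydrolase rose (Gla) and 6 fell (Ctsh, Gusb, Ctsl, Lipa, Ctsa and Glb1), against 21.8% of all genes higher and 24.5% lower. Without PBS replicate 2, 5 were higher and 7 lower, against 27.4% and 28.3% of all genes, so that the share higher was near that of all genes, with Hexa (0.36) among the higher and Asah1 (-0.21) among the lower. Exons of some members overlap those of another gene, and the deposited counting does not assign such reads: this holds for 34.4% of the exon bases of Ctsd, 26.8% of those of Ctsl, 17.4% for Ctsa, 12.8% for Ctsb, 12.8% for Hexa, 11.8% for Atp6v0b and at most 9.31% for the other members.

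Lysosomal hydrolases and activators outside the 41 showed more calls in the same direction. Of 29 such genes tested, 1 rose and 13 fell with MRC, 2 rose and 17 fell with MRC+L against PBS, and the median log2 fold change was -0.40 with MRC. Over all genes 17.8% were higher and 19.8% lower with MRC, and 21.8% and 24.5% with MRC+L. This list was written by hand with results on these samples known, so its direction is no independent evidence. Ppt1, which removes fatty acids from proteins and is lost in infantile neuronal ceroid lipofuscinosis, had 47.5, 44.9 and 46.8 CPM in MRC+L, 48.9, 49.4 and 50.2 CPM in MRC and 91.2, 95.9 and 82.2 CPM in PBS. Its log2 fold change with MRC was -0.86 ± 0.09 (adjusted p = 9.76e-05). Gm2a, the activator protein that presents ganglioside GM2 to hexosaminidase, had 28.4, 23.8 and 25.9 CPM in MRC+L, 28.0, 28.5 and 30.6 CPM in MRC and 55.0, 48.7 and 53.0 CPM in PBS (-0.85 ± 0.11, adjusted p = 0.000248). Galns, a sulfatase for keratan sulfate, had 23.8, 24.8 and 22.8 CPM in MRC+L, 25.01, 28.8 and 29.4 CPM in MRC and 46.2, 46.6 and 42.9 CPM in PBS (-0.70 ± 0.11, adjusted p = 0.000624). For all 3, every library with nanoparticles lay below every PBS library.

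Of the 10 other members, 1 rose with MRC, Cd68, and 2 fell, Grn and Tfeb, against 17.8% and 19.8% of all genes. With MRC+L against PBS 1 rose and 3 fell, the third being Cd63, against 21.8% and 24.5%. These shares are near or below those of all genes. The abundant coat proteins of the lysosomal membrane stayed near PBS: Lamp1 had 384, 377 and 392 CPM in the MRC+L libraries, 416, 394 and 401 CPM in the MRC libraries and 425, 416 and 372 CPM in the PBS libraries. Its log2 fold change with MRC was -0.00 ± 0.10 (adjusted p = 0.983). For Lamp2, whose splice forms serve chaperone-mediated autophagy and fusion with autophagosomes, it was -0.04 ± 0.13 (0.85). Scarb2, the receptor that carries glucocerebrosidase to the lysosome, and Mcoln1, a calcium channel of the lysosomal membrane, had 0.26 ± 0.12 (0.128) and 0.08 ± 0.11 (0.596), and Psap, the precursor of the saposins, had 0.06 ± 0.10 (0.668).

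Cd68 (chr11:69555039-69556979), a heavily glycosylated membrane protein best known from macrophages, had 19.3, 17.2 and 19.5 CPM in the MRC+L libraries, 22.2, 19.0 and 16.6 CPM in the MRC libraries and 7.05, 11.8 and 9.34 CPM in the PBS libraries. No library with nanoparticles was as low as the highest PBS library, and Cd68 rose by 1.04 ± 0.19 with MRC, or 2.06-fold (adjusted p = 0.00195), and by 0.99 ± 0.19 with MRC+L (0.00203). Of the 11 leukocyte markers on the list, all but Cd14 had at most 1.22 CPM. Fcgr1, a receptor for IgG on macrophages, was called higher like Cd68 (adjusted p = 0.000398 with MRC and 0.00235 with MRC+L), with 0.648, 0.268 and 0.710 CPM in MRC+L, 1.01, 1.22 and 1.14 CPM in MRC and 0.0522, 0.0588 and 0 CPM in PBS. Csf1r, the macrophage colony-stimulating factor receptor, did not pass the filter and had 0.378, 1.07 and 0.414 CPM in MRC+L, 0.507, 0.233 and 0.347 CPM in MRC and 0.104, 0 and 0.0622 CPM in PBS. Both markers were thus higher in every library with nanoparticles than in any PBS library. Adgre1 and Cd3e were at 0 in all 9 libraries, where 0 counts allow a level of up to 0.150 to 0.200 CPM, Ptprc had at most 0.162 CPM and Itgam also at most 0.162 CPM. Without Cd14 the leukocyte markers summed to 1.54 to 2.38 CPM in MRC+L, 1.84 to 2.21 CPM in MRC and 0.522 to 0.622 CPM in PBS, below the level of Cd68 itself in every library. Their part in the rise of Cd68 was not tested. Cd14 had 15.1 to 18.4 CPM in MRC+L, 16.7 to 20.8 CPM in MRC and 18.5 to 32.5 CPM in PBS. 
Grn (chr11:102321141-102327874) encodes progranulin, a secreted protein that also reaches the lysosome and is cut there into granulins. It had 389.7, 331 and 364 CPM in the MRC+L libraries, 343, 381 and 354 CPM in the MRC libraries and 523, 607 and 442 CPM in the PBS libraries. The PBS libraries were the 3 highest, and Grn fell by a log2 fold change of -0.55 ± 0.13 with MRC (adjusted p = 0.0087) and by -0.53 ± 0.13 with MRC+L (0.00801).
Cd63, a tetraspanin of late endosomes, averaged 441 ± 7.68 CPM in MRC+L, 498 ± 26.1 CPM in MRC and 659 ± 235 CPM in PBS, where PBS replicate 2 had 925 CPM. It fell with MRC+L against PBS by a log2 fold change of -0.58 ± 0.20 (adjusted p = 0.0402, and 0.000811 to 0.11 among the alternatives), and its log2 fold change was -0.26 without PBS replicate 2.

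Tfeb (chr17:48047955-48103344), the factor after which the lysosomal programme is usually named, was lower with nanoparticles. It had 8.32, 8.10 and 6.69 CPM in the MRC+L libraries, 8.17, 10.1 and 8.93 CPM in the MRC libraries and 18.9, 21.6 and 12.6 CPM in the PBS libraries. No library with nanoparticles reached the lowest PBS library, and Tfeb fell by a log2 fold change of -0.96 ± 0.20 with MRC (adjusted p = 0.00428) and by -1.20 ± 0.20 with MRC+L (0.00105). Tfe3, its more abundant relative here, had 67.7, 58.7 and 58.1 CPM in the MRC+L libraries, 58.1, 59.9 and 60.6 CPM in the MRC libraries and 54.7, 49.5 and 55.0 CPM in the PBS libraries, and its log2 fold change with MRC was 0.17 ± 0.10 (adjusted p = 0.22). Mitf, the third of the family and no member of the set, had 23.4, 22.4 and 20.6 CPM in the MRC+L libraries, 22.2, 19.0 and 18.1 CPM in the MRC libraries and 6.69, 7.06 and 8.53 CPM in the PBS libraries. All libraries with nanoparticles were above all PBS libraries, and Mitf rose by 1.41 ± 0.14 with MRC (adjusted p = 6.10e-05) and by 1.58 ± 0.14 with MRC+L (2.28e-05). Per kb of exon, Tfeb made up 10.9% to 12.6% of the MiT/TFE mRNA in MRC+L, 12.8% to 15.8% in MRC and 23.4% to 37.0% in PBS, whereas Mitf made up 30.1% to 31.7% in MRC+L, 26.4% to 31.7% in MRC and 10.5% to 14.4% in PBS. Tfe3 held 55.7% to 58.2% in MRC+L, 55.5% to 59.3% in MRC and 51.9% to 62.2% in PBS.

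**Figure D4:**
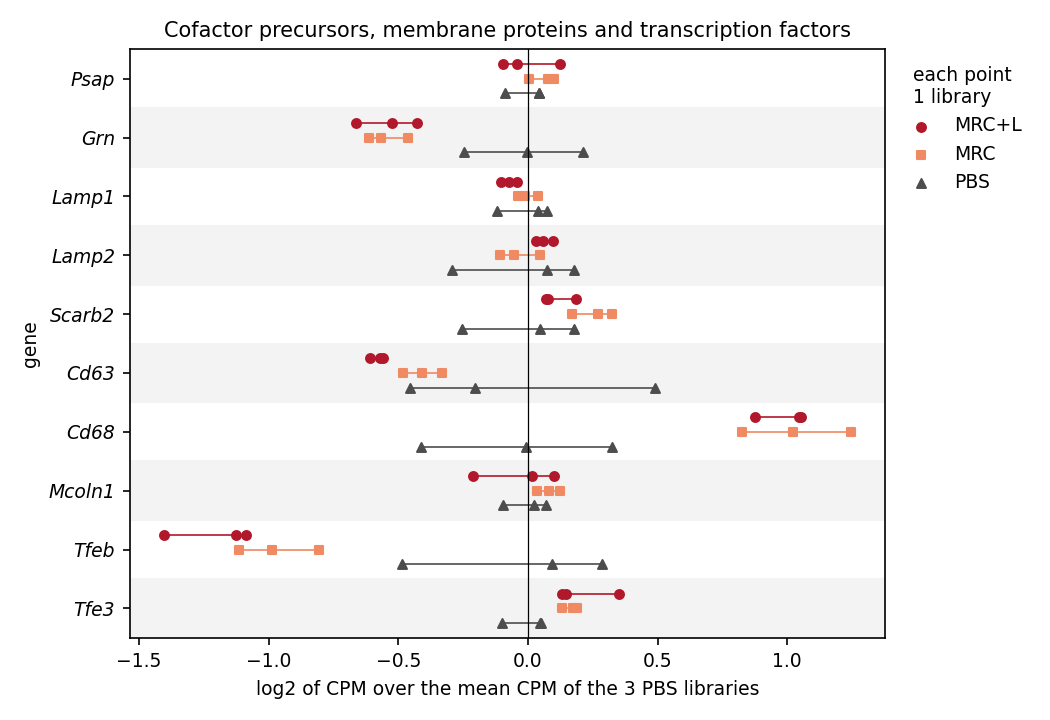
Level of the 10 other members in each library, as log2 of CPM over the mean CPM of the 3 PBS libraries, with 1 point per library and MRC+L above MRC above PBS. Cd68 lies to the right of PBS in all 6 libraries with nanoparticles, Tfeb and Grn lie to the left, and Lamp1, Lamp2, Psap and Mcoln1 overlap PBS.

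Genes that hold TFEB in the cytosol or release it were measured as a further list, which also held Mitf, a relative of TFEB. Of 24 tested, 9 rose and 2 fell with MRC, and 9 rose and 3 fell with MRC+L against PBS. The shares of all genes were 17.8% higher and 19.8% lower with MRC, and 21.8% and 24.5% with MRC+L. The counts of the 24 without PBS replicate 2 were 9 and 4 with MRC, against 24.7% and 26.0% of all genes. With MRC+L they were 11 and 5, against 27.4% and 28.3%. Besides Mitf, those with the smallest adjusted p that rose with MRC were Fnip2, a partner of folliculin (log2 fold change 1.14 ± 0.18, adjusted p = 0.000952), and Mlst8, a subunit of the mTOR complexes (1.06 ± 0.17, 0.00108). Fnip2 had 92.5, 96.9 and 95.5 CPM in MRC+L, 90.5, 94.9 and 74.2 CPM in MRC and 38.3, 28.8 and 50.6 CPM in PBS. Mlst8 had 18.6, 19.6 and 19.6 CPM in MRC+L, 16.8, 17.7 and 14.6 CPM in MRC and 8.57, 5.76 and 9.21 CPM in PBS. Neither gene overlapped between the PBS libraries and the rest. The 2 that fell were Lamtor1, the membrane anchor of the Ragulator (-0.56 ± 0.20, adjusted p = 0.0462, and up to 0.138 among the alternatives), and Depdc5, of the GATOR1 complex (-0.54 ± 0.19, 0.049, and up to 0.169). For Lamtor1 it was -0.27 without PBS replicate 2.

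Among 24 further membrane proteins and transporters, 8 rose and 5 fell with MRC and 9 rose and 6 fell with MRC+L against PBS. Over all genes 17.8% were higher and 19.8% lower with MRC, and 21.8% and 24.5% with MRC+L, so the shares lower were near those of all genes. Those that rose with the smallest adjusted p were Cln8, a cargo receptor that carries lysosomal enzymes out of the endoplasmic reticulum, Clcn7, the chloride-proton exchanger of the lysosome, and Slc17a5, the sialic acid exporter. Cln8 had 72.0, 75.0 and 74.7 CPM in MRC+L, 76.3, 71.4 and 68.2 CPM in MRC and 28.7, 28.2 and 25.7 CPM in PBS and rose by 1.39 ± 0.10 (adjusted p = 6.62e-06). Clcn7 had 85.0, 80.4 and 87.5 CPM in MRC+L, 73.5, 78.8 and 69.9 CPM in MRC and 39.6, 34.8 and 39.5 CPM in PBS and rose by 0.96 ± 0.10 (6.73e-05). Slc17a5 rose by 1.10 ± 0.16 (0.000562). Each of these genes had higher levels in all 6 libraries with nanoparticles than in any PBS library. Those that fell were led by Tpcn1, a cation channel of endosomes and lysosomes, with -1.36 ± 0.18 (adjusted p = 0.000287), Mfsd12, which imports cysteine, with -0.80 ± 0.11 (0.000372), and Tmem175, a lysosomal potassium and proton channel, with -0.52 ± 0.12 (0.00635, and up to 0.054 among the alternatives).

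Of 17 genes that sense or repair damaged lysosomes, 5 rose and 3 fell with MRC, and 5 rose and 5 fell with MRC+L against PBS. The share higher with MRC was 29.4%, against 17.8% of all genes. The share lower with MRC (17.6%) was not far from the 19.8% of all genes. With MRC+L the shares were 29.4% each way, not far from the 21.8% and 24.5% of all genes. Without PBS replicate 2, 5 were higher and 5 lower with MRC, against 24.7% and 26.0% of all genes. The galectin Lgals8, which binds glycans exposed on broken membranes, had 187, 198 and 193 CPM in MRC+L, 219, 207 and 208 CPM in MRC and 142, 125 and 142 CPM in PBS (log2 fold change 0.63 ± 0.10, adjusted p = 0.000635). Yod1 and Plaa, which act with the ATPase VCP to clear ubiquitin from such lysosomes, rose by 0.87 ± 0.14 (0.000762) and 0.56 ± 0.09 (0.00118). Tecpr1, which binds sphingomyelin exposed on damaged lysosomes, had 16.9, 14.3 and 15.7 CPM in MRC+L, 11.8, 18.2 and 15.4 CPM in MRC and 39.3, 40.8 and 40.8 CPM in PBS (-1.41 ± 0.15, adjusted p = 9.66e-05). The other 2 that fell with MRC were Ube2ql1 (-0.72 ± 0.19, 0.012, and up to 0.0531 among the alternatives) and Rab29 (-0.98 ± 0.28, 0.0185, and up to 0.0786). Of 16 genes that sort new enzymes to the lysosome, 1 was higher (Gga2, 0.67 ± 0.12, adjusted p = 0.00213) and 1 lower (Ap1s1, -0.91 ± 0.16, 0.00137) with MRC, against 17.8% and 19.8% of all genes. These counts were 2 and 4 without PBS replicate 2, against 24.7% and 26.0%. Of 16 genes of HOPS tethering and lysosome movement, 1 rose with MRC (Plekhm2, 0.77 ± 0.11, adjusted p = 0.000381) and 3 fell (Snapin, -0.72 ± 0.12, 0.00153; Vps41, -0.58 ± 0.11, 0.00216; Borcs8, -0.57 ± 0.18, 0.0312, and up to 0.117 among the alternatives). Over all genes 17.8% were higher and 19.8% lower with MRC, so the share lower of these 16 (18.75%) was near that of all genes. Without PBS replicate 2 the counts were 2 higher and 3 lower, against 24.7% and 26.0% of all genes.

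In MRC+L against MRC, which differ by the light, the members differed little. Of the 41 genes 0 rose and 1 fell in the fit of the 6 exposed libraries, against 3.13% of the 12955 genes tested called higher and 1.91% called lower. At an unadjusted p under 0.05, edgeR had 3 higher and 5 lower, and DESeq2 and limma voom also called 0 higher and 1 lower after adjustment. Over all genes the unadjusted edgeR counts were 1424 higher and 1291 lower. After adjustment DESeq2 called 456 and 288 of all genes, and limma voom 407 and 260. The log2 fold changes lay between -0.28 for Ctsh and 0.16 for Hexa, with standard errors of 0.059 to 0.154. The median was 0.03 over the V-ATPase genes and -0.05 over the hydrolases, against -0.01 over all genes tested.

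The called gene was Atp6v1f (chr6:29467717-29470511), the F subunit of the rotor. It had 93.9, 96.9 and 106 CPM in MRC+L and 114, 109 and 129 CPM in MRC, with no overlap, and 91.4, 148 and 72.3 CPM in PBS, a range that covers all the others. The log2 fold change of MRC+L over MRC was -0.25 ± 0.07 (adjusted p = 0.0473, and 0.0154 to 0.988 among the alternatives). The call was lost without MRC replicate 1 (adjusted p = 0.0568) or 3 (0.281), without MRC+L replicate 1 (0.177), 2 (0.204) or 3 (0.0583), with the trend on gene length removed (0.198) and with all 9 libraries in the fit (0.988). Ctsh had 19.0, 17.2 and 19.1 CPM in MRC+L and 22.7, 21.1 and 23.5 CPM in MRC, a log2 fold change of -0.28 ± 0.10 (adjusted p = 0.109), which did not pass although the libraries did not overlap. For Cd63 the log2 fold change was -0.17 ± 0.06 (0.105), and it was called only when MRC replicate 2 was left out (0.0325).

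**Figure D5:**
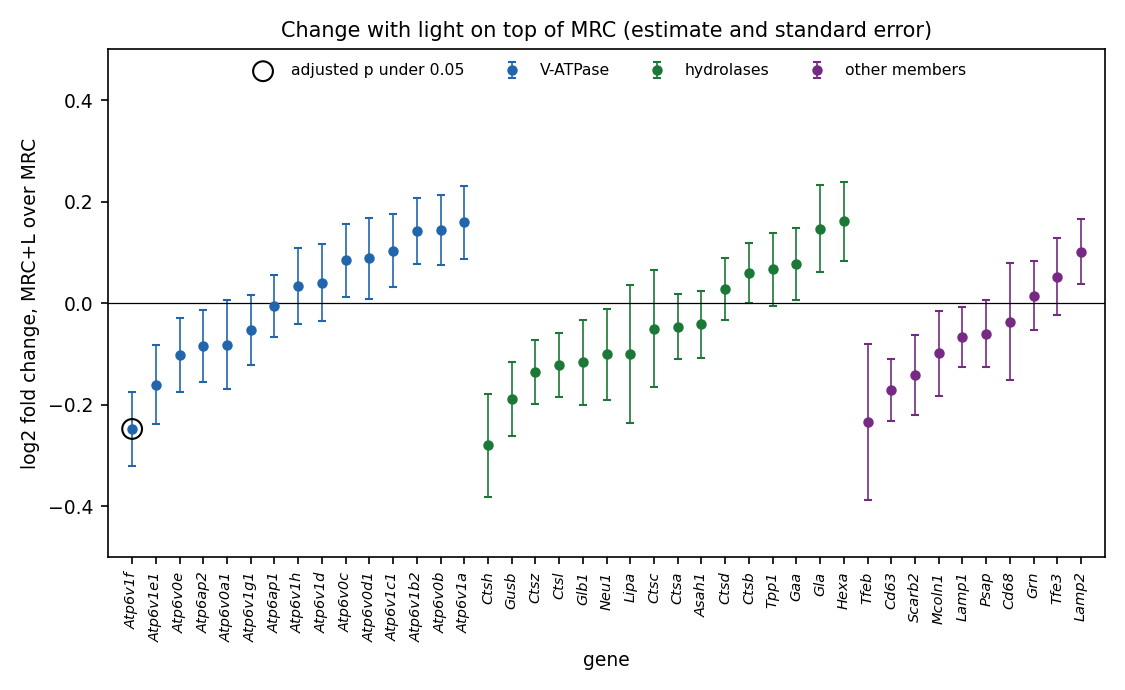
Log2 fold change of MRC+L over MRC for the 41 members, ordered by value within the V-ATPase genes, the hydrolases and the others, with bars of 1 standard error from the fit of the 6 exposed libraries and a ring round the called gene. The estimates lie between -0.28 and 0.16, and Atp6v1f alone is ringed.

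Among the 140 further lysosomal genes tested, 3 rose and 1 fell with light, against 3.13% and 1.91% of all genes. With the trend on gene length removed 1 rose (Fnip1) and 1 fell (Npc2), and with all 9 libraries in the fit none was called. These 4 were named after their values were seen. Fnip1, a partner of folliculin in the complex that acts on the Rag GTPases and so on the TFE factors, had 186, 204 and 204 CPM in MRC+L and 145, 132 and 134 CPM in MRC, and rose by 0.54 ± 0.07 (adjusted p = 3.41e-05). Its PBS libraries had 83.3, 47.8 and 111 CPM. Dmxl1, of the V-ATPase assembly factors, rose by 0.33 ± 0.07 (0.00476) and Tsc1, an inhibitor of mTORC1, rose by 0.30 ± 0.07 (0.021). With the length trend removed these were 0.13 for Dmxl1 (adjusted p = 0.232) and 0.20 for Tsc1 (0.0994), neither of them called. Npc2, the soluble carrier that hands cholesterol to NPC1, had 309.7, 308 and 329 CPM in MRC+L and 371, 347 and 415 CPM in MRC, and fell by a log2 fold change of -0.25 ± 0.07 (0.0317). Libraries of the 2 groups did not overlap for any of these 4 genes.

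Of the 7 members with TCACGTGA near their start, 1 rose with MRC (Gla), 1 fell (Ctsa) and 5 were not called (Atp6v0d1, Atp6v0e, Atp6v1a, Ctsd and Mcoln1). Over all genes 17.8% were higher and 19.8% lower with MRC, so 1 of 7 each way was near those shares. Without PBS replicate 2, Gla, Atp6v0d1, Atp6v0e and Ctsd were higher, Ctsa and Atp6v1a were lower and Mcoln1 was not called. In that fit 24.7% of all genes were higher and 26.0% lower. Lamp1, with 4 copies of the shorter motif, was not called in any of the 3 comparisons.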

How the data were processed

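Per the labels' protocols, 4T1 RNA was taken with Trizol and an Illumina TruSeq kit was used for the libraries. For each library the authors deposited 1 table of raw counts, which holds read pairs counted over exons and summed by gene with featureCounts 2.0.1 on the Ensembl release 104 annotation of GRCm39, without a strand option and without reads that map to more than 1 place, per the file headers. No aligner is given in the sources used here. Symbols came from GENCODE M21 by gene ID, and 52083 of 55416 IDs (94.0%) matched.

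Counts were tested in R 4.3.3 with edgeR 4.0.16 (quasi-likelihood test, TMM factors, expression filter with minimum count 10 and minimum total 15, Benjamini-Hochberg adjustment over all genes). MRC and MRC+L were compared with PBS on all 9 libraries (13439 genes) and MRC+L with MRC on its 6 libraries (12955 genes). CPM were scaled by TMM, and CPM per kb used the length over all exons. No 2 replicates agreed within counting noise. Alternatives used DESeq2 1.42.0, limma 3.58.1, other scalings and left-out libraries. Fits were tested on simulated data. Python 3.11.15, pandas 2.3.3 and matplotlib 3.10.9 served for summaries and figures. Promoter windows came from RefSeq (GRCm38.p6), and their coordinates are of that build, whereas those of genes are of GRCm39.

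The members and lists were chosen with earlier results of these data known. Values in every library are given for the called members with the smallest adjusted p in MRC against PBS. These were up to 5 V-ATPase genes, 5 hydrolases and 3 in each other role. Such values are also given for members called in MRC+L against MRC. Up to 3 genes per direction from each further list and the V-ATPase paralogs past the filter are named. For some of these the values in every library are given, for others only the fold change. Some other members and genes are named to describe a range, a call or a contrast, and these were chosen after their values were seen. A gene that rose among the further hydrolases and activators is not reported here.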

Additional observations from a re-analysis of the deposited data

How the results depend on the processing

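The counts of V-ATPase members called against PBS were the least stable. For MRC against PBS, 5 were higher in the analysis reported, 9 with the trend on gene length removed and 3 with the 2 groups only in the fit. The calls over all genes moved as well. They were 2394 of 13439 higher as reported, 2937 with that trend removed and 1672 of 12970 with the 2 groups only. For MRC+L against PBS, 5 were higher as reported, 9 with the length trend removed and 3 with limma voom, and the 1 that was lower became 0 with RLE factors, with the 2 groups only and with the replicate block. Over all genes 2926 were higher as reported, 3389 with the length trend removed and 2446 with limma voom. All-gene calls lower were 3286 as reported, 3208 with RLE factors, 2643 with the 2 groups only and 2860 with the replicate block. With the length trend removed, hydrolases called higher numbered 3 for MRC against PBS and 4 for MRC+L against PBS, where 1 each was reported. The shares of all genes called higher were then 21.85% and 25.22%, against 17.8% and 21.8% as reported. The 1 V-ATPase gene lower for MRC+L against MRC became 0 with the length trend removed and with all 9 libraries in the fit, where no gene of 13439 was called, against 406 higher and 248 lower as reported. Leaving out 1 library at a time gave 3 to 10 V-ATPase genes higher and 0 to 1 lower, and 1 to 4 hydrolases higher and 4 to 7 lower, for MRC against PBS. For MRC+L against PBS it gave 2 to 11 and 0 to 1 V-ATPase genes, and 1 to 5 and 6 to 7 hydrolases. For MRC+L against MRC it gave 0 to 1 V-ATPase genes lower. Over all genes such fits called 1684 to 3393 higher and 1878 to 3569 lower for MRC against PBS. For MRC+L they called 2226 to 3773 higher and 2476 to 3886 lower against PBS, and 47 to 392 lower against MRC. Atp6v1f, at -0.07 on the log2 scale for MRC+L against PBS and not called, was 0.29 with the length trend removed and 0.27 without PBS replicate 2, both called, and ranged from -0.28 to 0.27 over the left-out libraries. Of the members called, 11 of 15 kept the call under every alternative for MRC against PBS, 12 of 17 for MRC+L against PBS and 0 of 1 for MRC+L against MRC. Sign changes that involved no call were seen in 10, 11 and 10 members in these comparisons. Neither kept calls nor sign changes were counted over all genes, so there is no share to set these counts against. The replicate numbers are shared by the groups. Same-numbered libraries did not deviate together (correlations of -0.185 to 0.0385, and not every library correlated best with its own number). The deviations were taken from the mean of 3 libraries per group, so they cannot show whether same-numbered samples were prepared together. The labels do not say, and the analysis reported did not treat the numbers as pairs. With the replicate block, 4 V-ATPase genes were higher and 5 hydrolases lower for MRC against PBS, and 4 and 6 for MRC+L against PBS. Over all genes the block called 2059 higher and 2224 lower for MRC, 2630 and 2860 for MRC+L, and 445 and 275 for MRC+L against MRC. Precision against PBS was limited by 3 libraries with unequal spread, and no group received light alone.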

Other observations

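Some lysosomal genes that the rule for naming did not take were also called, and they were chosen here after their values were seen. Further hydrolases and carriers that fell with MRC include Man2b1, lysosomal alpha-mannosidase, with 44.6, 42.2 and 42.0 CPM in MRC+L, 44.1, 49.3 and 47.8 CPM in MRC and 70.8, 68.8 and 74.9 CPM in PBS (edgeR log2 fold change -0.60 ± 0.09, adjusted p = 0.000763). Npc2, the soluble cholesterol carrier of the lysosome, had 309.7, 308 and 329 CPM in MRC+L, 371, 347 and 415 CPM in MRC and 635, 1016 and 546 CPM in PBS (-0.96 ± 0.20, adjusted p = 0.00452), while Npc1, the membrane protein that takes cholesterol from it, had 82.3, 82.1 and 75.9 CPM in MRC+L, 77.3, 77.1 and 67.1 CPM in MRC and 43.5, 24.2 and 45.9 CPM in PBS (0.96 ± 0.20, adjusted p = 0.00448). The libraries with nanoparticles lay below PBS for Npc2 and above PBS for Npc1. PBS replicate 2 was the highest PBS library for Npc2 and the lowest for Npc1. Over all annotated exons of the gene, which is not the length of a transcript, Npc2 has 5438 bases and Npc1 11317. Without it both calls stood, with log2 fold changes of -0.65 for Npc2 (adjusted p = 3.28e-06) and 0.72 for Npc1 (2.06e-06).

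In the folliculin and Rag branch that sets where the TFE factors reside, Flcn had 84.3, 88.6 and 95.6 CPM in MRC+L, 78.6, 86.5 and 77.4 CPM in MRC and 58.5, 48.2 and 62.0 CPM in PBS (0.52 ± 0.12, adjusted p = 0.00578) and Rragc, a Rag GTPase, had 152, 148 and 151 CPM in MRC+L, 146, 135 and 138 CPM in MRC and 104, 115 and 97.8 CPM in PBS (0.40 ± 0.10, adjusted p = 0.00837). Rragd, its close relative, was near the lower end of what could be measured, with 1.03, 0.87 and 1.77 CPM in MRC+L, 1.52, 2.04 and 1.19 CPM in MRC and 0.366, 0.294 and 0.436 CPM in PBS (2.09 ± 0.42, adjusted p = 0.00317, and up to 0.104 among the alternatives). Among sensors of damaged lysosomes Lgals3, galectin-3, was abundant, with 1055, 1151 and 1126 CPM in MRC+L, 1081, 1041 and 1200.0 CPM in MRC and 587, 829 and 483 CPM in PBS (0.81 ± 0.18, adjusted p = 0.00557). PBS replicate 2 was the highest PBS library for Lgals3, and all libraries with nanoparticles lay above it.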
